A study of Bos taurus and Bos indicus with 6 samples.

Results

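Glutathione transferases were followed in circulating white blood cells of cattle heavily infested with the cattle tick, Rhipicephalus microplus. The genes looked for were GSTO1, GSTP1, GSTM1, GSTK1, MGST1, MGST2 and MGST3, and their members were all probe sets that the platform annotation pairs with 1 of these 7 symbols. That annotation held 5 of the 7 genes, with 7 probe sets, out of 9155 named genes and 24016 probe sets tested. GSTO1, MGST1, MGST2 and MGST3 had 1 probe set each and GSTK1 had 3, while GSTP1 and GSTM1 were not listed under those symbols. The genes were picked on values of these same arrays, with the breed difference and the spread between animals in view, so both are given below as description, without a test.

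The groups were 3 Brahman (annotated Bos indicus) and 3 Holstein (annotated Bos taurus, called Holstein-Friesian in the series text). All 6 were females of 6 months under heavy tick challenge, and each array carried RNA from 1 animal. No arrays from animals without ticks were used here, so a breed difference that is present before infestation cannot be told apart from one that comes with it. RNA was taken from the whole leukocyte pellet of jugular blood after lysis of red cells, with no sorting.

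Glutathione is the small thiol that cells keep at high concentration against oxidants and reactive compounds, and glutathione transferases join it to electrophiles or use it to reduce peroxides and disulfides. The soluble enzymes fall into classes such as omega (GSTO1), pi (GSTP1) and mu (GSTM1), kappa (GSTK1) sits in mitochondria and peroxisomes, and the MGST enzymes are membrane proteins of the MAPEG family. That family also holds the leukotriene-making proteins of leukocytes, and MGST2 itself can make leukotriene C4 in other cells.

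Values are log2 expression values made by RMA, a method that brings arrays to 1 distribution and combines each probe set's probes into 1 value. One unit is therefore a doubling of signal, and levels of different probe sets are not compared. Array medians ran from 6.54 to 6.61. The breeds did not separate on the summed level of pan-leukocyte markers, at 15.55 to 15.65 in Brahman and 15.55 to 15.75 in Holstein (log2 of the summed unlogged values of 8 genes), though single markers did. The leukocyte antigen gene PTPRC averaged 12.74 in Brahman and 12.66 in Holstein and the integrin gene ITGB2 12.16 in Brahman and 12.50 in Holstein, both without overlap (limma adjusted p = 0.698 and 0.259). Of the 8 markers, 1 was higher and 1 lower in Brahman without overlap, where 11.7% and 8.37% of all probe sets were. The hybridisation spike-in controls read 9.64 to 9.80 on Brahman arrays and 9.94 to 10.38 on Holstein arrays, without overlap. The part of this gap in the differences below was not tested beyond the values given with that level as a term in the fit. Since that level goes with breed on these arrays, such a fit cannot fully separate the level from breed.

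GSTO1 was read at a similar level in 5 animals and near the bottom of the scale in 1 Holstein. GSTO1 encodes the omega-class enzyme, which reduces dehydroascorbate and disulfides through an active-site cysteine. Its probe set (Bt.28194.1.S1_at) read 8.39, 8.69 and 8.26 in Brahman 1, 2 and 3, and 8.73, 9.0 and 4.85 in Holstein 1, 2 and 3. Holstein 3 stood 3.41 units, or 10.6-fold, below the next lowest array, which was Brahman 3. The other 5 arrays lay between 8.26 and 9.0, with a mean of 8.61 ± 0.29 (SD, n = 5 arrays of both breeds).

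The level of GSTO1 on Holstein 3 was that of a dim probe set. On that array 22.2% of probe sets had a lower value, against 77.0% to 84.9% on the other arrays. The lower quartile of the probe sets' mean levels was 5.08, and whether 4.85 lies above background cannot be judged without detection calls. The 10.6-fold gap is therefore uncertain in size.

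**Figure D1:**
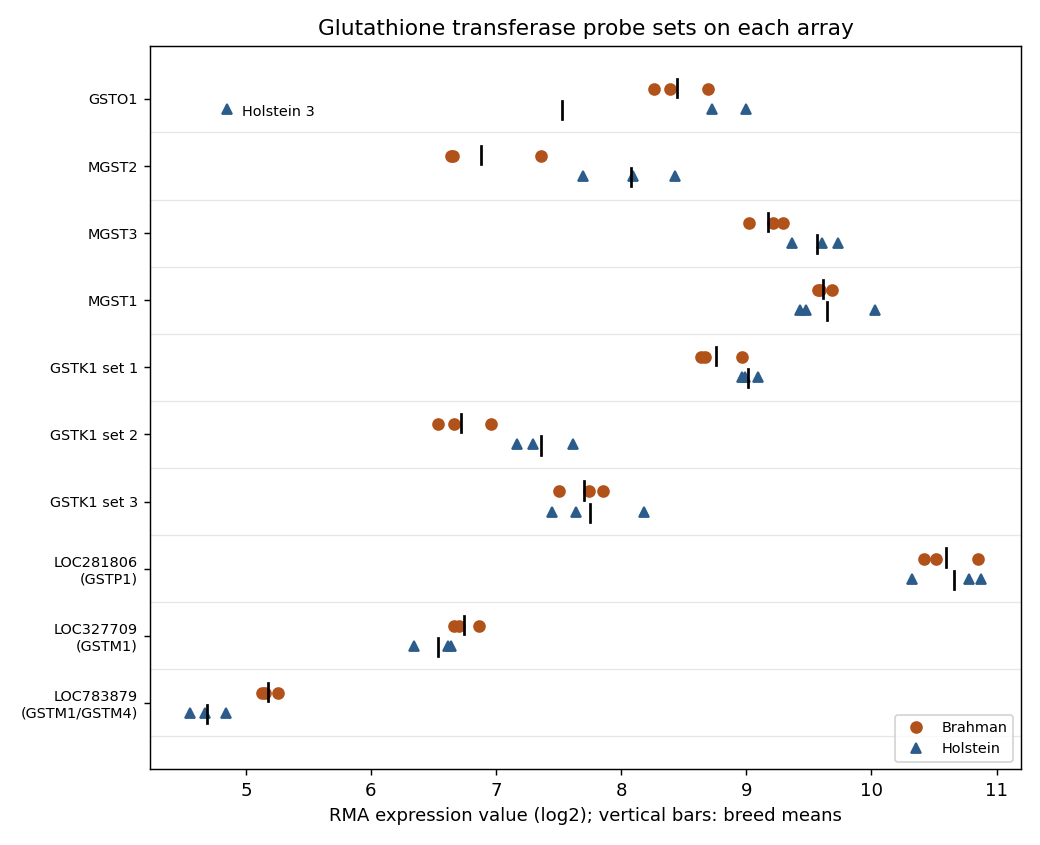
RMA expression values (x axis, log2) of the 7 probe sets of the transferases and of 3 probe sets under LOC symbols for which RefSeq lists GSTP1, GSTM1 or GSTM4 as another name, with 1 point per animal (circles Brahman, triangles Holstein) and a vertical bar at each breed mean. GSTO1 on Holstein 3 reads 4.85 while the other 5 arrays lie between 8.26 and 9.0.

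Single animals that stood this far below the rest were rare on these arrays. Of 24016 probe sets, 50 had 1 array at least 1 unit below all others, 8 at least 2 units and 2 at least 3 units, and GSTO1 had the largest of these gaps. The other probe set past 3 units had no gene name and was low on Brahman 2. At 1 unit Holstein 3 was not the array with the most such probe sets: it was the low array for 9 of the 50, against 12 for Holstein 2 and 5 to 9 for the other arrays. At 2 units it was the low array for 2 of the 8, as was each Brahman array, against 0 for Holstein 1 and 2.

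The spread of GSTO1 was wide in Holstein and narrow in Brahman. Its range over the 3 animals was 0.43 in Brahman and 4.14 in Holstein. The Holstein range was exceeded by 7 probe sets, among them 3 of the MHC class II genes BOLA-DQB1 (8.58 for the widest), BOLA-DQA2 (7.82) and BOLA-DQA1 (4.30). In contrast to GSTO1, those 3 genes also had a wide range in Brahman, at 6.80, 7.73 and 3.89 for the same probe sets. The protease gene PRSS2 shared the one-sided pattern, at 0.66 in Brahman and 5.41 in Holstein, with Holstein 2 high at 11.29.

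**Figure D2:**
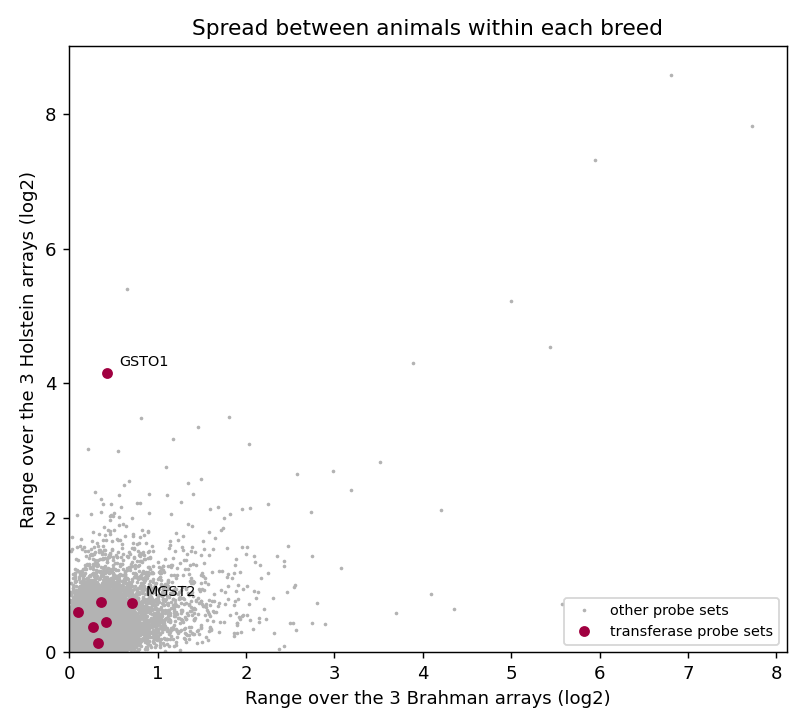
Range of the 3 Brahman arrays (x axis, log2) against the range of the 3 Holstein arrays (y axis, log2) for each of 24016 probe sets, with the 7 transferase probe sets as larger points. GSTO1 lies at 0.43 in Brahman and 4.14 in Holstein, apart from MGST2 and the others, whose ranges are at most 0.74 in either breed.

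The breed difference of GSTO1 depended on Holstein 3. With all arrays GSTO1 averaged 8.45 ± 0.22 in Brahman and 7.53 ± 2.32 in Holstein (SD, n = 3 each), a difference of 0.92 (SE 0.99), Brahman minus Holstein. Without Holstein 3 the sign turned: the difference was -0.41 (SE 0.16), with a Holstein mean of 8.86. The breeds then no longer overlapped, but by only 0.04 units, between Brahman 2 at 8.69 and Holstein 1 at 8.73. With any other array left out the difference was 0.80 to 1.66, so GSTO1 has no direction that holds over these animals.

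Other soluble transferases were read for the same animal. GSTA4, an alpha-class enzyme that conjugates the lipid peroxidation product hydroxynonenal, read 7.46, 7.85 and 7.55 in Brahman and 7.96, 8.05 and 6.67 in Holstein 1, 2 and 3. Holstein 3 was again the lowest array, by 0.80 units. The theta-class gene GSTT1 read 6.72 and the alpha-class gene GSTA2 5.38 on Holstein 3, below the lowest of the other arrays by 0.16 and 0.18. The mu-class gene GSTM3, by contrast, was highest on Holstein 3, at 5.15 against 4.44 to 5.05 in Brahman and 4.77 and 4.91 in the other Holstein. In all, 4 of 6 measured genes from a list of other transferases and MAPEG proteins were lowest on Holstein 3, as were 17.3% of all probe sets. The fourth was PTGES, which was dim (4.45) and lowest by 0.08. Of the 7 member probe sets, 1 was lowest there, that of GSTO1. The 3 of GSTK1 were highest there of all 6 arrays, at 9.10, 7.62 and 8.18. All these genes were set against Holstein 3 after its GSTO1 value was seen. GSTA4, GSTT1 and GSTA2 did not differ between breeds beyond their spread in limma (differences 0.06, 0.20 and 0.10, adjusted p = 0.966, 0.601 and 0.715).

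Genes next to GSTO1 in the order of the RefSeq assembly ARS-UCD2.0 showed no fall of its size on Holstein 3, but some were too dim to show one. Of 5 protein-coding entries on either side, 3 had a probe set. ITPRIP, the nearest of them and separated from GSTO1 by GSTO2, was 0.33 and 0.20 above the mean of the other arrays on Holstein 3 for its 2 probe sets. SORCS3, a sorting receptor gene, was 0.02 above it, and the collagen gene COL17A1 was 0.17 and 0.21 below it. Over the 6 arrays SORCS3 read 5.27 to 5.48 and the second COL17A1 probe set 4.27 to 4.61. The lowest value in the data was 2.89, so neither could fall as far as GSTO1 did. GSTO2, the other omega-class gene and the direct neighbour, had no probe set in the annotation used here. These neighbours were looked up after the values of GSTO1 were seen.

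A few named genes had values over the 6 arrays like those of GSTO1 or opposite to them. Likeness was the Pearson correlation of log2 values over 6 arrays among 68 genes that ranged by at least 2.07 units, 0.5 of the GSTO1 range, and the arrays differ in breed and animal alike. The highest values were those of the G protein subunit gene GNB4 (r = 0.89), the beta-defensin gene DEFB4A (0.79), TFF2 (0.58), PLAC8A (0.52) and the granzyme gene GZMB (0.50). The most negative were those of the fibrillin gene FBN1 (-0.96), MTPN (-0.81), KLRA1 (-0.76), TEX12 (-0.69) and the calcium pump gene ATP2B1 (-0.63). GNB4 read 5.87 on Holstein 3 and 7.14 to 8.41 on the other arrays, while FBN1 read 6.62 on Holstein 3 and 4.42 to 4.84 on the others.

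As correlations of deviations from the breed means, GNB4 (0.94), CXCL10 (0.89), DEFB4A (0.86), GZMB (0.76) and IFIT5 (0.74) were highest. FBN1 (-0.98), MTPN (-0.81), KLRA1 (-0.79), ATP2B1 (-0.75) and SATB1 (-0.66) were lowest. The difference of Holstein 3 from the mean of the other arrays was -3.76 for GSTO1, so 1 array carries most of the spread behind both rankings.

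**Figure D3:**
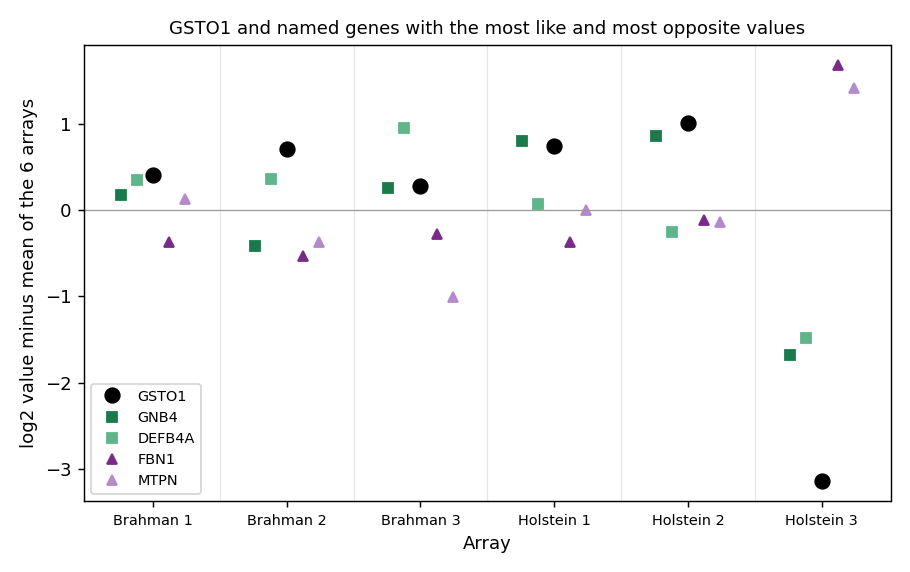
log2 value minus the mean of the 6 arrays (y axis) on each array (x axis) for GSTO1 (black circles), 2 genes with the most like values (squares) and 2 with the most opposite values (triangles). On Holstein 3, GNB4 and DEFB4A lie low with GSTO1, and FBN1 and MTPN lie high.

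Among the membrane-bound transferases, MGST2 had the largest difference between breeds. MGST2 (Bt.21183.1.S1_at) read 6.64, 6.65 and 7.36 in Brahman 1, 2 and 3, and 8.10, 8.43 and 7.70 in Holstein 1, 2 and 3. Every Brahman value was below every Holstein value, with Brahman 3 and Holstein 3 nearest to each other. The means were 6.88 ± 0.41 in Brahman and 8.07 ± 0.37 in Holstein (SD, n = 3 each), a difference of -1.19 (SE 0.25), or 2.28-fold. With 1 array left out it ran from -1.43 without Brahman 3 to -1.01 without Holstein 2, without overlap each time. With the spike-in level added to the fit it was -0.60, nearer to 0, but that level goes with breed and the fit cannot fully separate them.

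MGST3, which has glutathione transferase and peroxidase activity, had lower values in Brahman by a smaller step. MGST3 (Bt.1157.1.S1_at) read 9.29, 9.21 and 9.02 in Brahman 1, 2 and 3, and 9.73, 9.61 and 9.36 in Holstein 1, 2 and 3. The breeds did not overlap, and Brahman 1 and Holstein 3 were 0.07 apart. The means were 9.18 ± 0.14 in Brahman and 9.57 ± 0.19 in Holstein (SD, n = 3 each), and the difference was -0.39 (SE 0.13), or 1.31-fold. It ran from -0.49 to -0.31 with 1 array left out.

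MGST1, the microsomal enzyme of endoplasmic reticulum and outer mitochondrial membrane, overlapped between breeds. MGST1 (Bt.20383.1.S1_at) read 9.68, 9.59 and 9.58 in Brahman, and 10.03, 9.43 and 9.48 in Holstein 1, 2 and 3. The Brahman animals lay within 0.11 of each other, and the Holstein animals within 0.60, with Holstein 1 the highest. The difference was -0.03 (SE 0.16) and turned to 0.16 without Holstein 1. With the spike-in level added to the fit it was -0.51.

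GSTK1, the kappa-class enzyme, was measured by 3 probe sets that gave different sizes for the breed difference. The probe set Bt.13751.2.S1_a_at read 6.66, 6.54 and 6.96 in Brahman, and 7.17, 7.29 and 7.62 in Holstein, without overlap and with a difference of -0.64 (SE 0.16). The probe set Bt.13751.1.S1_a_at read 8.67, 8.64 and 8.97 in Brahman, and 8.99, 8.96 and 9.10 in Holstein, with Brahman 3 level with the lower Holstein values and a difference of -0.26 (SE 0.11). The probe set Bt.13751.2.S1_at read 7.50, 7.74 and 7.86 in Brahman, and 7.44, 7.64 and 8.18 in Holstein, with full overlap and a difference of -0.05 (SE 0.20). The difference at Bt.13751.2.S1_at turned positive, to 0.16, without Holstein 3, and to 0.05 without Brahman 1.

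The 3 GSTK1 probe sets shared the highest animal of each breed, while the order of the others differed between them. Each was highest in Brahman 3 among Brahman and in Holstein 3 among Holstein. Their deviations from the breed means correlated at 0.86, 0.57 and 0.82 in the 3 pairs (6 arrays, a description, since the probe sets share a gene and the arrays). Which of the probe sets measures the gene best was not tested.

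In all, 6 of the 7 probe sets had lower values in Brahman, and the median difference was -0.26, while the median over all probe sets was 0.02. The median was -0.50 with the spike-in level added to the fit and -0.41 without Holstein 3. Brahman and Holstein did not overlap in 3 of the 7, MGST2, MGST3 and 1 of GSTK1, each lower in Brahman. Over all probe sets 20% did not overlap, 8.37% with lower and 11.7% with higher values in Brahman. Without Holstein 3 the count was 4, with GSTO1 added, where 34.3% of all probe sets did not overlap, 15.3% lower and 18.9% higher in Brahman. Because the genes were picked with this contrast known, nothing is read from these shares.

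**Figure D4:**
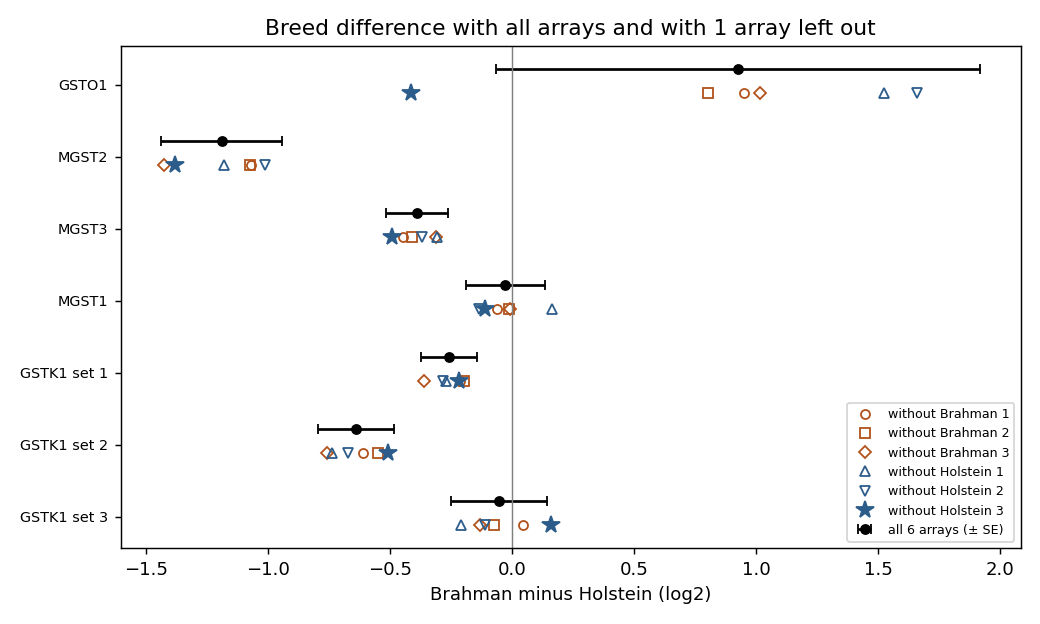
Brahman minus Holstein (x axis, log2) for the 7 transferase probe sets, with all 6 arrays (black, ± SE) and with each array left out (open symbols, or a filled star without Holstein 3). GSTK1 sets 1, 2 and 3 are Bt.13751.1.S1_a_at, Bt.13751.2.S1_a_at and Bt.13751.2.S1_at. GSTO1 lies at 0.92 with all arrays and at -0.41 without Holstein 3, while MGST2 and MGST3 stay below 0 throughout.

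The pi- and mu-class genes were found under older names. RefSeq lists GSTP1 as another name of LOC281806, and GSTM1 as another name of LOC327709 and, with GSTM4, of LOC783879, and each had 1 probe set tested here. RefSeq also has an entry with the symbol GSTP1 itself, which has no probe set in the annotation, and these paralogs are close enough that probes may read more than 1 of them. These probe sets were added after the data were seen.

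The pi-class probe set differed little between breeds. LOC281806 read 10.85, 10.42 and 10.51 in Brahman, and 10.88, 10.78 and 10.32 in Holstein, with overlap and a difference of -0.07 (SE 0.18). Its lowest value was on Holstein 3, by 0.10.

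Both mu-class probe sets under older names had higher values in Brahman. The mu-class gene GSTM3 had the opposite sign, at 4.65 in Brahman and 4.95 in Holstein, with overlap. LOC327709 read 6.70, 6.66 and 6.86 in Brahman, and 6.61, 6.34 and 6.64 in Holstein, a difference of 0.21 (SE 0.11) with 0.02 between the closest animals. LOC783879 read 5.13, 5.16 and 5.26 in Brahman, and 4.55, 4.67 and 4.84 in Holstein, a difference of 0.49 (SE 0.10) without overlap. The values of LOC783879 lie near the lower quartile (5.08) and are not shown to be above background. The array also carries 3 control probe sets for the 3′, middle and 5′ parts of LOC327709, and the 3′ one read 6.41 to 6.53 in Brahman and 6.39 to 6.54 in Holstein, with full overlap.

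The transferases work within glutathione metabolism, and 100 further genes were listed for it: other transferases, proteins with the same fold, glutathione synthesis and recycling, enzymes that use glutathione or act on eicosanoids, export of conjugates, and targets and regulators of the transcription factor NFE2L2. The arrays measured 67 of them, each taken at its brightest probe set. With limma and Benjamini-Hochberg adjustment over all probe sets, 1 was called lower in Brahman and 0 higher, where 0.137% of all probe sets were called, 0.0583% lower and 0.0791% higher. The 1 call, PTGR1, was known when the lists were written, so nothing is read from this share, and no other listed gene was called. With the unadjusted p under 0.05 there were 6 with lower and 4 with higher values, against 13.6% of all probe sets, 6.47% lower and 7.12% higher. The median difference over the 67 was -0.09.

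**Figure D5:**
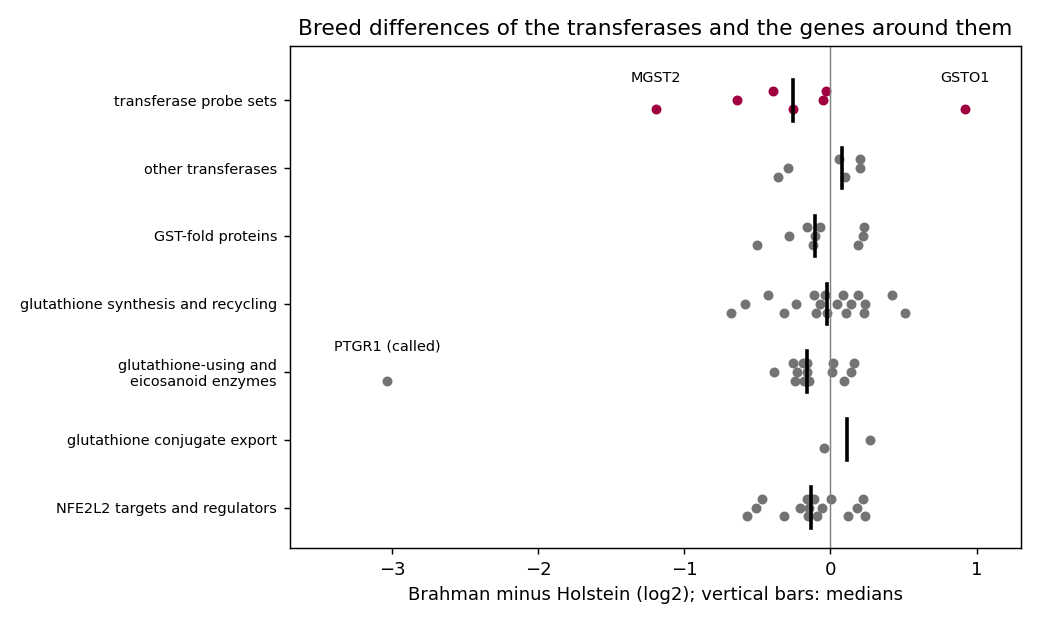
Brahman minus Holstein (x axis, log2) for the 7 transferase probe sets (top row) and for the genes of 6 lists around them, 1 point per gene at its brightest probe set, with a vertical bar at each median. PTGR1 at -3.03 is the only listed gene that was called, and the medians of the 6 lists lie between -0.16 and 0.11.

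The called gene was PTGR1, an NADPH-dependent reductase of eicosanoids and other unsaturated carbonyl compounds that does not itself use glutathione. PTGR1 read 5.68, 6.57 and 6.60 in Brahman, and 9.05, 9.27 and 9.64 in Holstein, a difference of -3.03 (SE 0.27, limma adjusted p = 0.0156). These are values of the brighter of its 2 probe sets. The other was not called by limma, since the count over every probe set of the listed genes was also 1. The PTGR1 call was known from earlier work on these arrays when the list was written. The adjusted p was 0.0509 without Brahman 2, 0.0865 without Holstein 2 and 0.358 with the spike-in level added to the fit.

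The list of enzymes that use glutathione or act on eicosanoids had 15 measured genes, PTGR1 and the NAD-dependent prostaglandin dehydrogenase gene HPGD among them, and 10 had lower values in Brahman (median -0.16). PTGR1 was its only call. GLRX2, the mitochondrial glutaredoxin, averaged 8.43 ± 0.12 in Brahman and 8.82 ± 0.19 in Holstein (SD, n = 3 each), and GLRX3 averaged 9.48 ± 0.04 in Brahman and 9.67 ± 0.19 in Holstein. Their limma adjusted p-values were 0.267 and 0.523. For both, each Brahman value was below each Holstein value, and with PTGR1 they had the smallest p of the list. Of the 15 genes, 3 were lower and 0 higher in Brahman without overlap, where 8.37% and 11.7% of all probe sets were.

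In glutathione synthesis and recycling 19 genes were measured and 0 were called by limma, with 2 higher and 1 lower where p was under 0.05 before adjustment and a median of -0.03. CHAC1, which breaks glutathione down in the cytosol, read 6.99, 6.84 and 6.72 in Brahman, and 6.28, 6.33 and 6.41 in Holstein (difference 0.51, SE 0.10, limma adjusted p = 0.126). OPLAH, which recovers glutamate from oxoproline, read 6.29, 6.21 and 6.30 in Brahman, and 5.79, 5.90 and 5.84 in Holstein (difference 0.42, SE 0.08, limma adjusted p = 0.130). CNDP2, a dipeptidase that splits cysteinylglycine, had the opposite sign, at 9.40 ± 0.24 in Brahman and 10.08 ± 0.46 in Holstein (SD, n = 3 each, limma adjusted p = 0.287). The breeds did not overlap in any of CHAC1, OPLAH and CNDP2, which were named for the smallest p of the list. Of the 19 genes, 3 were higher and 2 lower in Brahman without overlap, where 11.7% and 8.37% of all probe sets were.

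The other transferases and MAPEG proteins comprised 6 measured genes of 21 listed, with 0 called by limma, 0 at an unadjusted p under 0.05 and a median of 0.08. ALOX5AP, the MAPEG protein that hands arachidonic acid to the lipoxygenase of leukotriene synthesis, read 10.29, 10.20 and 10.20 in Brahman, and 10.50, 10.95 and 10.32 in Holstein (difference -0.36, SE 0.16, limma adjusted p = 0.383). As for MGST2, Holstein 2 was the highest and Holstein 3 the lowest Holstein animal. PTGES (4.74 in Brahman and 4.54 in Holstein) and GSTM3 (4.65 in Brahman and 4.95 in Holstein) were dim, with means under the lower quartile of 5.08, and had limma adjusted p-values of 0.418 and 0.536.

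Proteins that share the transferase fold were measured for 9 of 11 genes, with 0 called by limma, 0 at an unadjusted p under 0.05 and a median of -0.10. GDAP1L1 (0.19), the chloride intracellular channel gene CLIC5 (0.22) and the elongation factor subunit gene EEF1G (0.23) had the smallest p-values, with limma adjusted p from 0.373 to 0.410. For export, ABCC1, which carries leukotriene C4 and glutathione conjugates out of cells, averaged 7.71 ± 0.07 in Brahman and 7.44 ± 0.16 in Holstein (SD, n = 3 each, limma adjusted p = 0.345). ABCC3 differed by -0.04 (limma adjusted p = 0.883).

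NFE2L2 is the transcription factor that turns on many transferase genes under oxidative stress, and 16 of 18 genes listed for it were measured. By limma 0 were called, with 1 higher and 3 lower where p was under 0.05 before adjustment, and the median was -0.13. NFE2L2 read 8.82, 9.17 and 9.08 in Brahman, and 9.71, 9.72 and 9.35 in Holstein (difference -0.57, SE 0.14, limma adjusted p = 0.190). TKT, of the pentose phosphate pathway, differed by -0.47 (SE 0.13) and HMOX1, the haem-degrading enzyme, by -0.51 (SE 0.19), with limma adjusted p-values of 0.234 and 0.318. Of the 16 genes, 5 were lower and 1 higher in Brahman without overlap, NFE2L2, TKT and HMOX1 among the 5, where 8.37% and 11.7% of all probe sets were. The 1 higher was ME1, by 0.23. Over the 67 measured genes of all 6 lists, 12 were lower and 8 higher without overlap.

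In a whole leukocyte pellet fewer cells of a type and less RNA per cell cannot be told apart, so marker levels are given beside the breed differences. The summed level of T cell markers was 14.37 to 14.58 in Brahman and 13.96 to 14.15 in Holstein (log2, 15 of 17 genes measured), without overlap, and 13 of the 15 had higher values in Brahman. That of monocyte markers was 13.72 to 14.00 in Brahman and 13.94 to 14.36 in Holstein (8 of 12 genes), with 7 of 8 lower in Brahman. The exception, VCAN, averaged 8.71 in Brahman and 7.79 in Holstein, while CD14 averaged 8.27 in Brahman and 9.21 in Holstein. Both were without overlap (limma adjusted p = 0.0719 and 0.141). RMA gives no values of 0, and 0 of the measured T cell and monocyte markers had a mean under the lower quartile of 5.08. The part of these markers in the values of MGST2, MGST3 and GSTK1 was not tested.

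The summed monocyte levels overlapped between breeds, as did those of the remaining lists. Summed levels were 14.57 to 15.14 in Brahman and 14.74 to 15.04 in Holstein for neutrophils (11 genes), and 11.04 to 11.63 in Brahman and 10.91 to 12.32 in Holstein for eosinophils (2 genes). B cell markers (5 genes) gave 13.26 to 13.44 in Brahman and 13.29 to 13.51 in Holstein. Single genes of the neutrophil and B cell lists did separate, ALPL (difference 1.42), TGM3 (1.61), BLK (0.97) and CR2 (0.35). These had the smallest p of their lists and were higher in Brahman without overlap (limma adjusted p = 0.0834, 0.245, 0.106 and 0.244). Of the 11 neutrophil and 5 B cell genes, 0 were lower without overlap, though 6 and 3 had lower means. Over all probe sets 11.7% were higher and 8.37% lower without overlap. NK cell markers gave 11.57 to 12.35 in Brahman and 11.51 to 12.01 in Holstein, and basophil and mast cell markers 7.87 to 8.10 in Brahman and 7.63 to 7.91 in Holstein. Platelet markers were 10.09 to 10.97 in Brahman and 10.90 to 11.38 in Holstein, overlapping by 0.07.

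Holstein 3 was the lowest or highest array in 4 of 10 marker lists, against 6 each for Brahman 1 and Holstein 2 and 1 or 2 for the others. Its summed level of erythroid markers was 9.52, the lowest of the 6 arrays, against 10.03 to 10.45 in Brahman and 10.31 and 10.55 in Holstein 1 and 2. Its eosinophil level of 10.91 and NK cell level of 11.51 were also the lowest, and its B cell level of 13.51 was the highest. The next NK cell level was 11.57, in Brahman 2, and the NK cell markers did not all move alike. GZMB, named above among the genes most like GSTO1, was lowest on Holstein 3, at 6.71. It was low in every Holstein animal, at 7.10 and 7.77 in Holstein 1 and 2, against 9.92, 9.76 and 9.42 in Brahman. GZMB was called higher in Brahman (difference 2.51, SE 0.26, limma adjusted p = 0.0264). KLRD1 (7.02) and KLRB1 (5.29) had their highest Holstein values on that array. The neutrophil level of 14.74 and monocyte level of 14.11 on Holstein 3 lay within the range of the other arrays. The part of these markers in the GSTO1 value of Holstein 3 was not tested.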

How the data were processed

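Total RNA of white blood cells from 6 animals was biotin-labelled and hybridised to a bovine expression array, 1 animal per array. The deposited table holds log2 expression values that the authors computed with RMA (named in the submitters' processing notes, version not given in the sources used here). Of 24128 rows, 112 are array controls. The other 24016 probe sets were tested. Gene symbols came from the platform annotation, with 1 symbol for 13292 probe sets, several for 86 and none for 10638, and 13263 of the first matched RefSeq by Entrez identifier.

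Brahman minus Holstein was fitted with limma 3.58.1 in R 4.3.3 (lmFit, eBayes, breed only), two-sided, with Benjamini-Hochberg adjustment over all probe sets and calls at an adjusted p under 0.05. The pipeline was tested on simulated data. Lists used the brightest probe set per gene. The text names every probe set of the transferases, called genes and the 3 of smallest p per pathway list, and 5 genes most like and most opposite to GSTO1. Genes named on Holstein 3, next to GSTO1 or under older symbols, and PTPRC, ITGB2 and HPGD, were chosen after their values were seen. The genes and lists were chosen with earlier results of these data known. Replicates are different animals, 3 per breed, which limits the precision. Alternatives covered scaling, filtering, prior, weights, a spike-in covariate, the replicate number and leaving out each array. The replicate numbers were checked for pairing, which is given with the alternatives.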

Additional observations from a re-analysis of the deposited data

How the results depend on the processing

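The count of 33 called probe sets was 10 with the replicate block, 15 with 1 probe set per gene and 5 to 55 with 1 array left out. It was 0 by limma with the spike-in level added as a covariate, where 2400 had an unadjusted p under 0.05. The replicate block is only a shared number here: deviations of same-numbered animals correlated at 0.11, -0.04 and -0.07. With 1 animal of each breed per number the block cannot alter a difference, so equal differences say nothing about pairing. The GSTO1 difference ran from -0.41 to 1.66 with 1 array left out and changed sign only without Holstein 3. It was 0.89 to 1.73 under the other alternatives. The 1 called gene of the glutathione lists became 0 with the covariate (10 at an unadjusted p under 0.05, limma), and 0 to 1 with 1 array left out. MGST1 changed sign on renormalising (0.021) and with array weights (0.0067), ran from -0.14 to 0.16 with 1 array left out, and was -0.51 with the covariate. The GSTK1 probe set Bt.13751.2.S1_at was 0.10 with the covariate and ran from -0.21 to 0.16 with 1 array left out. The cause of these changes was not tested. Over 91 differences of single probe sets under the alternatives, 82 kept their sign and moved by less than the spread between animals, 2 moved by more and 7 changed sign. The 82 include the filter, the prior and the replicate block, which cannot alter a difference and so say nothing about stability. For GSTO1 that spread was 1.65 with Holstein 3 included, so a move from 0.92 to 1.73 also counted as kept. The mean over several GSTO1 probe sets was not run, since there is 1. The number of arrays and the lack of detection calls limit the precision.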
